A study of Mus musculus with 2 samples.

Results

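The Zic genes encode transcription factors with tandem zinc fingers related to those of the Gli factors. They are known for their expression in the neural plate border, the dorsal neural tube and the neural crest, and Zic2 and Zic5 are known from mouse mutants in which the neural tube fails to close. In the mouse genome Zic1 and Zic4 lie side by side on chromosome 9 and point away from each other, and Zic5 and Zic2 form a second such pair on chromosome 14. Described here are the 4 genes Zic1, Zic2, Zic4 and Zic5, which had 9 of the 55418 transcripts in the authors' deposited table. They were chosen by position, as the transcripts whose mm9 locus overlapped chromosome 9 from 91245000 to 91295000 or chromosome 14 from 122850000 to 122885000.

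The series compared RNA from 2 pools of cells of mouse embryos at embryonic day 9.5. The embryos came from Grhl3-cre crossed to the mTmG reporter, both on C57BL/6, and the pools differ by design in the reporter, which Cre had recombined in the GFP-positive cells. One pool was GFP-positive and labelled as non-neural ectoderm, the surface sheet beside the closing neural tube, and the other was RFP-positive and labelled as the rest of the neural tube cells. RNA of 25 embryos with 21 to 25 somites was pooled, and each pool gave 1 library, so no difference has a replicate check. GFP reports that a cell or its ancestor expressed the Grhl3-driven Cre, not the fate of the cell. The table calls its conditions q1 and q2, and neither name matches a pool. Which pool was higher therefore cannot be stated. Every fold change below has the sign of the deposited log2 column, read as q2 over q1. The deposited test statistic has the opposite sign in all 28140 tested rows with a finite fold change, so only its size is used, and the order of q1 and q2 was not checked against the abundance columns. In such bulk pools, fewer cells of a type and less RNA per cell cannot be told apart. The pools' own marker genes were not checked, because the table's rows carry IDs without gene names and no mm9 annotation was at hand. The Zic rows could be placed through the windows given above. Library depth is unknown.

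The rows were matched to genes by length and order. Counting starts from 0 in the file, the Zic5 locus was 6499 bases long and the Zic2 locus 4945 bases, the same lengths as in RefSeq on GRCm38, a later build used here for names, order and length alone. The Zic1 locus of 5455 bases and the Zic4 locus of 20377 bases were shorter than RefSeq's 7711 and 23721 bases, and these were assigned by their order on the chromosome. Counted from 1 on mm9, Zic1 spans 91255183 to 91260637 and Zic4 91263810 to 91284186 on chromosome 9, with 3172 bases between them. Zic5 spans 122858382 to 122864880 and Zic2 122874606 to 122879550 on chromosome 14, with 9725 bases between them. GENCODE places Zic1 and Zic5 on the minus strand and Zic4 and Zic2 on the plus strand, so each pair is divergent.

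**Figure D1:**
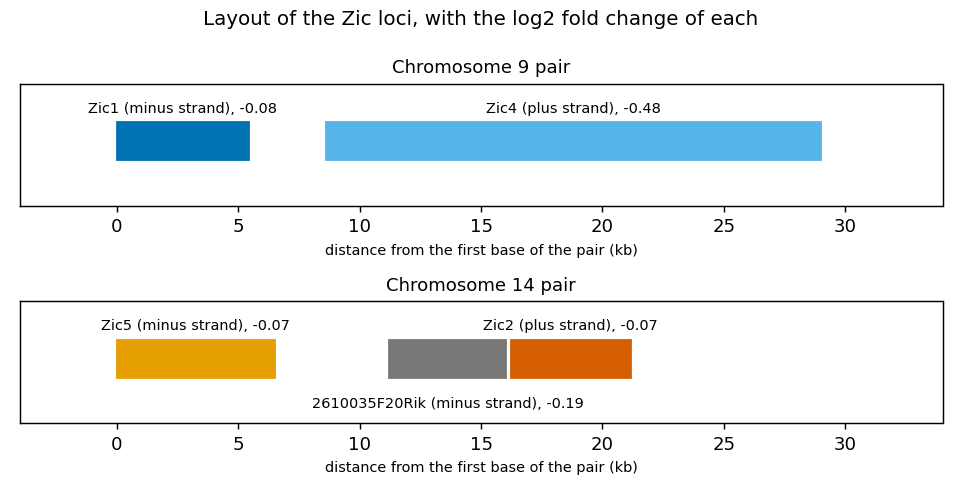
Layout of the loci as the deposited table gives them, in kb from the first base of each pair; boxes are loci, and the number beside each name is the log2 fold change of q2 over q1 of its transcript with the smallest error. The Zic genes of each pair lie on opposite strands, while 2610035F20Rik, drawn between Zic5 and Zic2, is on the minus strand like Zic5. The values lie between -0.48 and -0.07.

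The 4 genes resemble each other most in the part that codes for the zinc fingers, and the length of what they share bears on whether a read can be given to 1 of them. The longest exact stretch shared by the coding sequences of any 2 of them was 42 bases, between Zic1 and Zic4 (GENCODE M21 models). It is shown with the most similar stretch of Zic2 and of Zic5, read 5′ to 3′, where capitals mark bases that differ from Zic1.
Zic1: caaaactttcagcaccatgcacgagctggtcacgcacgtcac
Zic2: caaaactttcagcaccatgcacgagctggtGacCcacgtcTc
Zic4: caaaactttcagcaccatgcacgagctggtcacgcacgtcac
Zic5: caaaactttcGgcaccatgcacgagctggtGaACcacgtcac
Zic2 differed from Zic1 at 3 of the 42 bases and Zic5 at 4. The stretch begins at base 729 of the Zic1 coding sequence of 1344 bases and at base 456 of the Zic4 coding sequence of 1026 bases. In the other pairs the longest exact match was 35 bases for Zic1 and Zic2, 30 for Zic2 and Zic4, 26 for Zic2 and Zic5, 21 for Zic4 and Zic5 and 20 for Zic1 and Zic5. A read longer than 42 bases that lies in the coding sequence would thus differ at 1 base or more between any 2 of these models. Whether so small a difference gives a read to 1 gene depends on how many differing bases the alignment allowed. Neither that setting nor the read length is given in the sources used here, and longer stretches with a few differing bases were not measured.

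None of the Zic genes was called different between the 2 conditions. All 9 Zic transcripts were tested, and 0 of them were called in the authors' deposited table, where 0.803% of all tested transcripts were. Their lowest p-value in the authors' deposited table was 0.477, so 0 had a p-value under 0.05, and the q-value of each was 0.999983. The log2 fold changes of all 9 were smaller than their own errors. The error used here divides the size of a log2 fold change by that of the deposited test statistic, so it covers the spread that the authors' test assigned to these libraries. With 1 library per pool, spread between embryos or sorts was not measured, and how the authors' test set its spread is not given.

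Zic2, whose loss leaves the neural tube open in mice, was the most precisely measured of the 4. In the authors' deposited table its only transcript, uc007vbd.1, had a log2 fold change of -0.07 ± 0.33 (error) at a p-value of 0.836. The 95% interval ran from -0.72 to 0.58, or from 0.606-fold to 1.50-fold. A 2-fold difference in either direction lay outside it. An error this small was rare, since only 6.22% of the 28140 tested transcripts with a finite fold change had one as small, and the smallest in the table was 0.27. Zic5, its partner on chromosome 14, is known for a part in neural tube closure and in neural crest formation. The authors' deposited table gave its only transcript, uc007vbb.2, a log2 fold change of -0.07 ± 0.53 at a p-value of 0.889. Its 95% interval, from -1.11 to 0.97, held a 2-fold lower but not a 2-fold higher level in q2.

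Zic1 is known from mutant mice with a malformed cerebellum, and it marks the dorsal neural tube. Its 2 transcripts share 1 locus. In the authors' deposited table, uc009raf.1 had a log2 fold change of -0.08 ± 0.41 at a p-value of 0.851. Its 95% interval ran from -0.87 to 0.72, inside a 2-fold difference on either side. The second, uc009rag.1, stood at -0.13 in the authors' deposited table, but its error of 0.98 made the interval as wide as -2.06 to 1.80. Both values lay close to 0, and only the interval of uc009raf.1 lay inside 2-fold. These intervals rest on 1 library per pool, so spread between embryos or sorts was not measured.

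Zic4, the neighbour of Zic1 that is deleted with it in some patients with Dandy-Walker malformation, had 5 transcripts and was measured least well. The most precise, uc009rai.1, stood at -0.48 ± 0.68 on the log2 scale in the authors' deposited table, at a p-value of 0.477. Its 95% interval ran from -1.81 to 0.85, so a level in q2 as low as 0.285-fold remained within it. The other 4 lay at 0.02 for uc009rah.1, -0.10 for uc009raj.2, 0.29 for uc009ral.1 and 0.94 for uc009rak.1 in the authors' deposited table. Their errors ran from 1.17 to 3.29, each larger than a 2-fold difference. The 5 transcripts overlap at 1 locus and had values of both signs, and the value of Zic4 is the least certain of the 4.

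**Figure D2:**
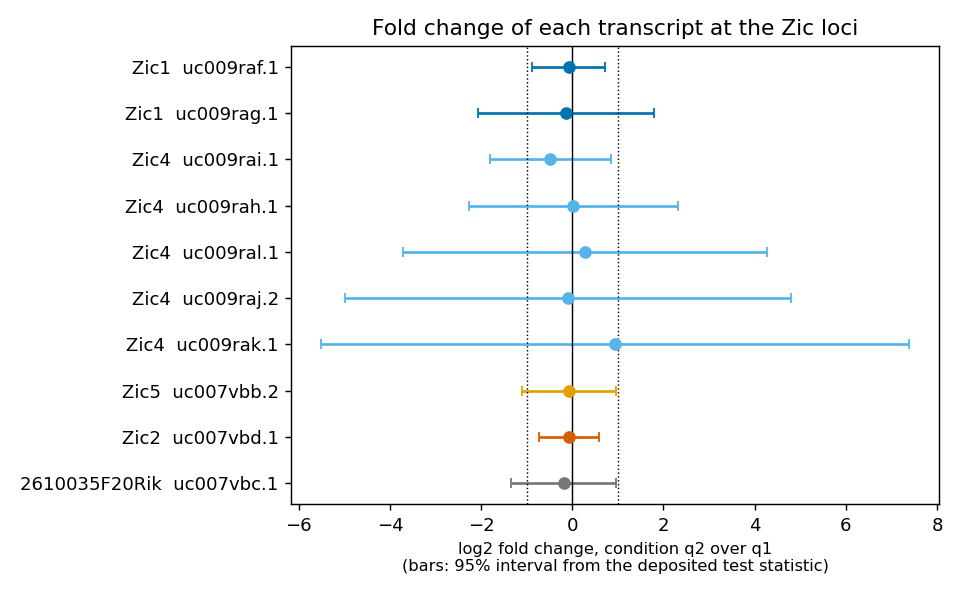
Log2 fold change of q2 over q1 for the 9 Zic transcripts and the non-coding neighbour of Zic2; points are the deposited values, bars are 95% intervals from the deposited test statistic, and dotted lines mark 2-fold. Every interval includes 0, and the intervals of Zic2 and of uc009raf.1 of Zic1 stay inside the dotted lines.

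By size, 0 of the 9 Zic transcripts reached 2-fold in either direction, and the farthest, uc009rak.1 of Zic4, was 1.92-fold higher in q2 in the authors' deposited table with an error that leaves its sign unknown. Over the whole table, at any error, 7.66% of the tested transcripts with a finite value were higher in q2 by 2-fold or more, and 5.70% were lower by as much. Past 2-fold in either direction, the share was smaller among more precisely measured transcripts. It was 1.32% at errors up to that of Zic2, 1.64% for Zic1, 2.78% for Zic5 and 4.07% for Zic4, each by its most precise transcript. A count of 0 therefore does not set the Zic genes apart. The median log2 fold change of the 9 was -0.07, beside 0.0046 for the whole table, and 6 of the 9 were negative. Of these 9, 5 are overlapping transcripts of Zic4, so neither figure weighs the 4 genes equally. With a single transcript per gene, the one with the smallest error, Zic1, Zic2 and Zic5 were within 0.0073 of each other on the log2 scale. That closeness is far finer than the errors can resolve, since Zic1 minus Zic2 had a 95% interval from -1.04 to 1.02. The value of Zic2 minus that of Zic4 was 0.41, with an error of 0.76 and a 95% interval from -1.07 to 1.90. Of the 6 pairs among the 4 genes, none differed by more than 0.547 times the error of its difference. The 2 chromosomal pairs therefore could not be told apart by these values.

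The size of difference that a call would take depends on the error, which differed between the genes. Among calls with a finite value in the authors' deposited table, the smallest test statistic was 3.54 in size, and the largest without a call was also 3.54. If the errors of the transcripts above also held at larger fold changes, which was not tested, a call would take a 2.27-fold difference for Zic2, 2.72-fold for Zic1, 3.68-fold for Zic5 and 5.30-fold for Zic4. Calls did occur at such errors, since 20 of the 1749 tested transcripts with an error at most that of Zic2, or 1.14%, were called in the authors' deposited table, and 54 of the 4279 with an error at most that of Zic1, or 1.26%. The median size of the log2 fold change among those 1749 transcripts was 0.12, beside the -0.07 of Zic2. Among all tested transcripts with a finite value, at any error, 16.1% had a log2 fold change as near to 0 as that of Zic2.

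**Figure D3:**
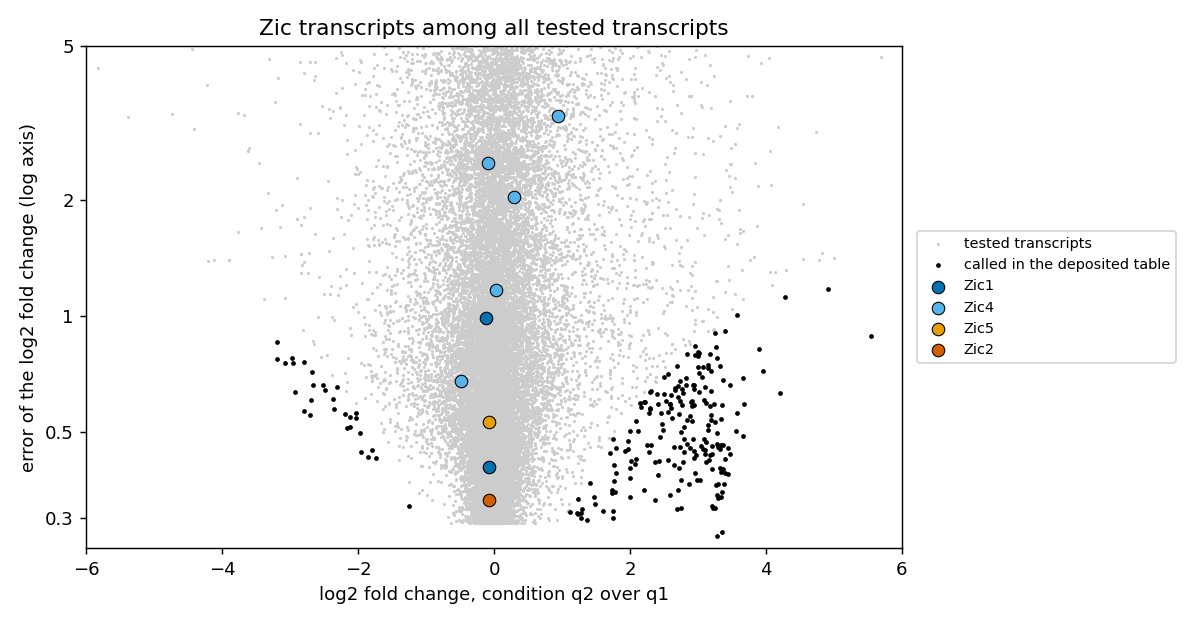
Error of the log2 fold change (log axis) against the log2 fold change of q2 over q1; grey points are tested transcripts, black points those called in the deposited table, and coloured points the Zic transcripts, with 23851 of the tested transcripts inside the axes. The Zic transcripts lie in the central column away from the black points, with Zic2 near the lower end of the errors.

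A non-coding RNA lies between Zic5 and Zic2. Its locus, from 122869599 to 122874421 on chromosome 14, was 4823 bases long, as is 2610035F20Rik in RefSeq, which sits in the same place between the 2 genes. It is on the minus strand, so it starts 184 bases from the start of Zic2 and the 2 point away from each other. In the authors' deposited table its transcript, uc007vbc.1, had a log2 fold change of -0.19 ± 0.59 at a p-value of 0.748. Its 95% interval, from -1.35 to 0.97, held the whole of that of Zic2. In RefSeq's later models Zic1 and Zic4 overlap by 138 bases on opposite strands. The mm9 loci counted here lie 3172 bases apart, so no such overlap lies within both of them. Whether the counting used strand is not given.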

How the data were processed

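RNA was sequenced from 2 pools, 1 library each, made from 1 µg of total RNA. The submitters' processing notes name TopHat 1.3.2, Cufflinks 2.0.2, Cuffdiff and the build mm9, without annotation or settings. The authors deposited 1 Cuffdiff table. Its log2 fold change (handled as a score, because ratios against 0 carry placeholder values) and its test statistic, also a score, were used as deposited, as were the p-value, q-value, status and call. The 2 abundance columns, named for no pool, were not used, so no levels are given.

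Rows were found by locus, and every row found was reported; each gene is represented by its tested transcript with the smallest error. The members and lists were chosen with earlier results of these data known. The lists of marker and dorsal genes that had been planned were not matched to rows, because no mm9 annotation was at hand. Intervals are 95% normal intervals from the error; the deposited p-values matched a normal distribution of the statistic to within 2.7e-06. The interval and the Benjamini-Hochberg adjustment were tested on simulated data. With 1 library per pool no test across samples was made. Coding sequences are from GENCODE M21 (GRCm38), using the complete model with the longest coding sequence. Tables were computed with pandas 2.3.3, scipy 1.17.1 and numpy 2.4.6 under Python 3.11.15, and figures drawn with matplotlib 3.10.9.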

Additional observations from a re-analysis of the deposited data

How the results depend on the processing

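The count of 0 Zic transcripts called was also 0 at a q-value of at most 0.1 and with a Benjamini-Hochberg adjustment over all rows. Neither rule could change it, since the lowest deposited p-value of the Cuffdiff test was 0.477 and every q-value was 0.999983. The count of 0 past 2-fold was also 0 after centring on the median of tested transcripts. That median was 0.0046 and the farthest Zic value 0.94, so centring could not change the count either. A 4-fold rule and rows of every status were run as planned but could not change it, since none reached 2-fold and all 9 were tested. The 23 alternative values, these included, moved by less than the error of the value or, for counts, not at all. Some of the gene values were also fixed in advance: Zic2 and Zic5 had 1 transcript each, so their medians could not move, and including every status added no row. The value of Zic4 changed sign, from -0.48 to 0.02, when the median over its 5 transcripts replaced the most precise one. Requiring a locus to lie wholly inside the windows kept all 9 Zic transcripts and reduced the rows found from 15 to 10. The pseudocounts planned for the abundance columns were not run, because those columns were not used. No paired analysis was possible because each pool gave 1 library, and for the same reason no replicate could be left out.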

Other observations

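The windows also caught the edge of a long neighbouring locus on chromosome 14, which overlapped by 369 bases and lists 5 transcripts. Of its 3 tested transcripts 0 were called, and their log2 fold changes ran from -1.30 to 0.48 in the authors' deposited table. The nearest call to the Zic1 and Zic4 pair in the authors' deposited table, uc009rdh.1, lay 6.90 Mb away on chromosome 9. The authors' deposited table put it at 3.15 ± 0.51 on the log2 scale. The nearest call to the Zic5 and Zic2 pair lay 20.8 Mb away and was a ratio against 0, with no finite fold change.

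RefSeq promoters on GRCm38, from 250 bases before to 50 after the start, were matched for Zic1, Zic4 and Zic5. The Zic1 promoter held 31 CpG dinucleotides, more than 89.4% of the 32851 promoters, at 65.3% GC. The Zic5 promoter held 15 and the Zic4 promoter 8, beside a median of 7. The promoters of the 2 divergent genes on chromosome 9 thus differed in CpG content. The log2 fold change of Zic1 minus that of Zic4 had a 95% interval from -1.14 to 1.96, and a relation to CpG content was not tested. These promoters follow later models, which are longer than the counted loci of both genes. Their starts need not be those of the measured transcripts.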
